A study of Mus musculus with 3 samples.

Results

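Of the 15797 TFAP2A peaks on chromosomes 1 to 19 that both ChIP-seq replicates held, 3624 lay between genes but near one (22.9%, exact Clopper-Pearson 95% interval 22.3% to 23.6%). The rule used a call in both replicates and the position of the summit, and neither the enrichment nor the sequence. Each was a replicate 1 peak that shared 1 bp or more with a peak of replicate 2, and its summit, the base of highest signal, lay outside the body of every protein-coding gene and over 1 kb, but at most 50 kb, from the nearest protein-coding transcription start site (TSS). Genes and starts were those of GENCODE mouse version 1, on the mm9 build. The other shared autosomal peaks had their summit within 1 kb of a TSS (2199), inside a gene body and over 1 kb from a TSS (7368), or between genes and over 50 kb from any TSS (2606, called desert peaks here). The replicate 1 list had 18528 peaks in all and the replicate 2 list had 21459. The same positional rule held for 4179 of the replicate 1 peaks, of which 86.7% were found in replicate 2, and for 4728 of the replicate 2 peaks, of which 77.3% were found in replicate 1.

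The study mapped TFAP2A in melan-a cells, an immortalised line of mouse melanocytes derived from normal embryonic skin with the genotype Cdkn2a tm1RDp/tm1RDp, which every sample shared. Chromatin from 2 independent experiments was fixed with 1% formaldehyde for 10 minutes and precipitated with the antibody AP-2alpha (3B5):sc12726. The cells had no treatment, but their medium held 10% serum, 200 nM TPA (12-O-tetradecanoylphorbol 13-acetate, a phorbol ester) and 200 pM cholera toxin. Input chromatin made up the remaining sample and is not analysed here on its own. The cells are 1 line, gene expression is not among the values used here, and so nothing below says whether a nearest gene is active or responds to TFAP2A. The number of reads behind each list is unknown, so precision is given by the 2 replicates and by counting intervals over peaks. Peaks are not replicates of a condition, and the tests below cover counting error over peaks of these 2 libraries only.

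TFAP2A (AP-2 alpha) is a transcription factor of the neural crest and its derivatives, the lineage that gives rise to melanocytes, and it binds DNA as a dimer at a GC-rich palindrome. Factors of this kind bind at promoters and at enhancers, which are regulatory elements that can lie far from the gene they act on. The nearest TSS is therefore only a positional label, and a peak may act on another gene or on none.

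The sequence under the strongest of these peaks shows what TFAP2A was found on. Below, the replicate 1 summit with 50 bases to each side is given for the 10 peaks that ranked highest by enrichment when the ranks in the replicates were averaged, each named by its nearest gene and written 5′ to 3′ on the plus strand of mm9. Capitals mark matches to GCCNNNGG on either strand, the TFAP2 core used throughout.
Lama2, chr10:27354602-27354702: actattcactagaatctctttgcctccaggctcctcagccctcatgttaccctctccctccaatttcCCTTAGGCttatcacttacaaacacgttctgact
Slc16a12, chr19:34847399-34847499: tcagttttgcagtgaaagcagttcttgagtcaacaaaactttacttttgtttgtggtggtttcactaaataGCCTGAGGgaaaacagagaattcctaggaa
Plcb4, chr2:135445797-135445897: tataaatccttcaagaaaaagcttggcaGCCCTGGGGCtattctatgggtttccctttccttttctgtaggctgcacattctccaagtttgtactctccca
Tmem20, chr19:38503971-38504071: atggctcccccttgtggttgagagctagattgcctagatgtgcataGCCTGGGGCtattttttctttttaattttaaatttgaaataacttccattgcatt
Klhl9, chr4:88360313-88360413: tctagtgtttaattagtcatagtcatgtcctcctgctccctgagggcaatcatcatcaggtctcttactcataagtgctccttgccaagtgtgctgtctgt
Csmd1, chr8:17558307-17558407: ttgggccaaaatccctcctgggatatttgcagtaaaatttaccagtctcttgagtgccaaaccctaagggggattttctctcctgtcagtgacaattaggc
Lass4, chr8:4537254-4537354: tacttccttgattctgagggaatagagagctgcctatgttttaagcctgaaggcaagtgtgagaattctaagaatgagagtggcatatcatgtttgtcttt
Tm4sf1 distal, chr3:57139177-57139277: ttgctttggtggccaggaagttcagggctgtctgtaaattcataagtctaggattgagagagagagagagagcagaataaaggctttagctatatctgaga
Tm4sf1 proximal, chr3:57108692-57108792: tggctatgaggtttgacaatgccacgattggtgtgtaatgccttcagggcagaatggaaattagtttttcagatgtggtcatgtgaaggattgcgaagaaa
Gm9008, chr6:76496373-76496473: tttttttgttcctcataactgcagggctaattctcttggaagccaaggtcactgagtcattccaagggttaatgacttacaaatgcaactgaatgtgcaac

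A TFAP2 core stood within 50 bp of the summit in 4 of these 10 windows, those at Lama2, Slc16a12, Plcb4 and Tmem20. Across all 3624 peaks it stood there in 2032 (56.1%, interval 54.4% to 57.7%), beside 57.1% of all shared autosomal peaks. The string count at the strongest peaks moved with how the core was spelled. A looser string, CCNNNGG, tried after the windows had been seen, was present in 3 of the 6 windows that lacked GCCNNNGG, and a core with 1 more base between GCC and GGC in 1 of them. The looser string stood at the summit of 73.1% of the intergenic peaks (72.4% of all shared peaks) and in 27.1% of flanking windows, and the core with the longer spacer at 16.4% of summits (17.3% of all) and in 2.35% of flanks. Any of the 3 strings was found at 2735 summits (75.5%), a share that was not counted over all shared peaks or in flanks.

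The 10 strongest peaks were the upper end of a range with no gap below them, since 12 peaks reached a fold enrichment over background of 30 in both replicates. The highest lay at -17.9 kb from Lama2, which encodes a laminin chain of basement membranes, with a fold enrichment of 61.6 in replicate 1 and 56.4 in replicate 2 (59.0 ± 3.69, mean ± SD, n = 2). Negative distances are upstream of the TSS, against the direction of its transcription. Next came a peak at -25.7 kb from Slc16a12, a transporter of the monocarboxylate carrier family, with 53.0 and 46.6 (49.8 ± 4.53). The third, at -38.9 kb from Plcb4, a phospholipase C that acts below G protein-coupled receptors, had 45.9 and 36.2 (41.1 ± 6.88). In all 3, replicate 1 was the higher.

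Tm4sf1, which encodes a 4-span protein of the cell surface, was the nearest gene of 2 of the 10. The peak at -33.4 kb had a fold enrichment of 33.1 and 38.3 in replicates 1 and 2, and the peak at -2.90 kb had 36.6 and 31.7. The replicates ordered this pair in opposite ways, so neither was the stronger beyond the spread. Of the other 5, Klhl9, an adaptor of a ubiquitin ligase, had a peak at 8.01 kb downstream with 43.0 and 37.3. Csmd1, a large membrane protein, had one at -22.8 kb with 43.5 and 32.4, the widest gap between replicates among the 10. Peaks at Tmem20 (33.6 kb; 36.8 and 38.3), Lass4, a ceramide synthase (43.9 kb; 36.4 and 33.6), and the predicted gene Gm9008 (-48.6 kb; 35.1 and 30.6) made up the rest. Of the 10, 7 lay upstream of the nearest start, close to the 74.6% of all 3624 peaks, and 2, at Klhl9 and at the nearer site of Tm4sf1, lay within 10 kb, as did 1295 of the 3624.

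**Figure D1:**
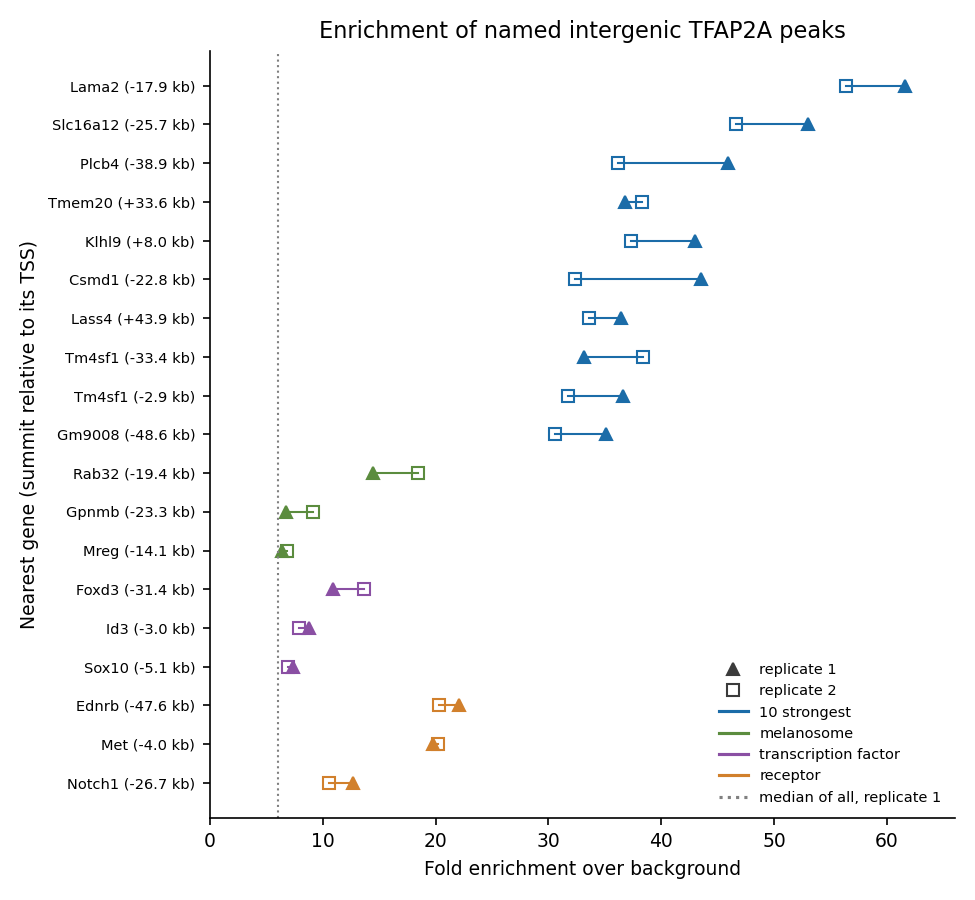
Fold enrichment over background (x axis) of the 10 strongest intergenic peaks and of the 3 strongest at each melanocyte gene list (y axis, nearest gene and summit position relative to its TSS in kb). Triangles are replicate 1, squares replicate 2, and the dotted line is the replicate 1 median of all 3624 peaks, 6.05. The 10 strongest lie between 30.6 and 61.6 in both replicates.

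Most of the intergenic peaks were weaker. The median fold enrichment was 6.05 in replicate 1 and 6.57 in replicate 2 (6.31 ± 0.364, n = 2), with quartiles of 4.50 and 8.83 in replicate 1 and of 4.85 and 9.26 in replicate 2. The lowest values were 2.13 and 2.04. In both replicates, 518 peaks reached 10, 60 reached 20 and 12 reached 30. The replicates ranked the peaks alike: Spearman's rho across the 3624 peaks was 0.826 as a description, 98.5% of values lay within 2-fold of each other, and the median gap between summits was 24 bp. Because the rule required an overlapping call in both lists, it sets part of this closeness, and peaks called in 1 list only are left out. The peaks were a median of 453 bp wide in replicate 1 and 398 bp in replicate 2.

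The first comparison set these peaks against the other locations. Their median enrichment was close to that of gene body peaks (6.02 and 6.58 in replicates 1 and 2), above that of TSS peaks (4.45 and 4.97) and below that of desert peaks (6.82 and 7.27). The order TSS, then near intergenic, then desert held in each replicate. Of the intergenic peaks near genes, 352 (9.71%, interval 8.77% to 10.7%) were in the upper 10% of all shared autosomal peaks by mean log2 enrichment, beside the 10.0% that this limit sets for all. At TSSs it was 1.64% (36 of 2199), 8.08 percentage points lower (adjusted p = 9.4e-39 by a two-sided Fisher's exact test, with Benjamini-Hochberg adjustment over the 3 other classes). When peaks were ranked by -log10 p, it was 4.96 points lower at TSSs (exact test, adjusted p = 8.8e-11). For gene bodies the share by fold enrichment was 10.9%, and the difference of -1.16 points did not pass the exact test (adjusted p = 0.0638). It passed with every transcript start taken as a TSS (-1.74 points, exact test, adjusted p = 0.00591), and was -0.316 points when peaks were ranked by -log10 p. In deserts it was 15.0%, a difference of -5.29 points (exact test, adjusted p = 5.0e-10). This last difference rested on the measure: ranked by -log10 p in place of fold enrichment, it was 0.312 points (exact test, adjusted p = 0.706).

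The location classes also differed in the TFAP2 core. It stood at 56.1% of the intergenic peaks near genes and at 56.1% of gene body peaks, a difference of 0.0174 points (Fisher's exact test, adjusted p = 1). Its sign turned under 7 alternatives, by at most -0.684 points, and with CCNNNGG it was 2.52 points and passed the exact test (adjusted p = 0.00614). It was more frequent at TSS peaks (68.4%, adjusted p = 2.2e-20) and less frequent at desert peaks (51.8%, adjusted p = 0.00145, both by the exact test). GC content moved with these shares. The median GC content of these windows was 50.5% near genes, 50.5% in gene bodies, 62.4% at TSSs and 47.5% in deserts, and its part in the differences was not tested. Among the 3624 peaks, Spearman's rho between GC content and enrichment was -0.182 in replicate 1 and -0.245 in replicate 2, as a description. With the longer string GCCNNNGGC the difference from desert peaks was 1.72 points and did not pass the exact test (adjusted p = 0.121). That from TSS peaks was -12.3 points with GCCNNNGG and -7.02 points with GCCNNNGGC (exact test, adjusted p = 8.9e-10 for the longer string).

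At the summits themselves, the TFAP2 core was concentrated. Equally long flanks, with their centres 400 bp to the left and right, held it in 13.3% and 14.2% of the intergenic peaks, and the share at summits was 4.08 times the mean of the flanks (exact McNemar test against each flank, larger p adjusted over 7 strings, p = 2.8e-296). In points the difference between summits and flanks was 42.3 with GCCNNNGG and 15.9 with GCCNNNGGC (exact McNemar test, adjusted p = 2.7e-114 for the longer string). Where GCCNNNGG was present, the centre of the nearest core lay a median of 14.5 bp from the summit, and within 20 bp in 63.3%. Most peaks with a core had 1 (1691), while 284 had 2 and 57 had 3 or more, counting overlapping matches once. The core was more frequent in the intergenic peaks of the upper 10% than in the other intergenic peaks (63.4% and 55.3%, p = 0.00392 by a two-sided Fisher's exact test). By the same exact test this difference was 4.07 points with GCCNNNGGC (p = 0.0706) and 4.03 points with 100 bp to each side of the summit (p = 0.128), and neither passed. It was 12.1 points when peaks were ranked by -log10 p (exact test, p = 5.9e-06) and 11.2 points with replicate 1 alone (exact test, p = 1.3e-05).

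Sites of partner factors were searched in the same way. The AP-1 string TGACTCA, bound by Fos and Jun dimers, stood at 8.25% of summits (299 of 3624; 6.36% of all shared autosomal peaks) and in 1.93% of flanks, a ratio of 4.27 (adjusted p = 4.6e-34, exact McNemar test). Its share was above that of gene body peaks (6.23%, Fisher's exact test, adjusted p = 0.000178) and of TSS peaks (2.00%, adjusted p = 1.6e-25), while desert peaks had 7.75% (adjusted p = 0.479). A difference from gene body peaks was also seen for CGGNNNCG, a control string that holds CpG and was assigned to no factor. It was not matched to TGACTCA in base composition. The control string stood at 3.53% of the intergenic peaks, above gene body peaks (2.32%, exact test, adjusted p = 0.000361) and desert peaks (1.34%, adjusted p = 6.7e-08). Its share was below that of TSS peaks (27.5%, exact test, adjusted p = 2.2e-156). Among the 10 strongest peaks and the strongest of each distance bin, the AP-1 string was present at Slc16a12, Gm9008, Anln and Trpv2. Across all 3624 peaks it stood at 9.4% of those in the upper 10% by enrichment and at 8.13% of the others. That difference of 1.25 points did not pass Fisher's exact test (p = 0.415). AP-1 strings stood at 7.82% of the intergenic peaks with a TFAP2 core and at 8.79% of those without, a difference of -0.969 points that did not pass Fisher's exact test (p = 0.302).

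The other strings had lower ratios of summit to flanks than TFAP2 and AP-1. GGAATG, bound by TEAD factors, stood at 10.8% of summits (10.5% of all shared peaks) and in 6.14% of flanks (adjusted p = 4.3e-12, exact McNemar test). Its share was below that of desert peaks (13.5%, Fisher's exact test, adjusted p = 0.0020) and above that of TSS peaks (5.78%, adjusted p = 7.0e-11), with 10.7% at gene body peaks (adjusted p = 0.793). The SOX strings ACAAAGG and ACAATGG stood at 5.49% (5.22% of all) and in 3.49% of flanks (exact test, adjusted p = 0.000698). TCATGTG, the M-box that MITF binds, stood at 1.99% (2.01% of all) against 1.82% in flanks, and the E-box CACGTG at 1.74% (1.79% of all) against 1.41%. Neither passed the exact test (adjusted p = 0.799 and 0.606). Against TSS peaks, the SOX strings (2.09% there, Fisher's exact test, adjusted p = 1.8e-10) and the M-box (0.591%, adjusted p = 2.2e-05) were more frequent at the intergenic peaks and the E-box less (3.14%, adjusted p = 0.00217). The E-box was also more frequent than at desert peaks (1.07%, exact test, adjusted p = 0.0485). The control string also stood more often at summits (3.53%, 5.94% of all) than in flanks (1.70%, exact test, adjusted p = 1.7e-06), a ratio of 2.08. The ratios for TEAD (1.76) and SOX (1.57) were below that of the control string, and those for TFAP2 and AP-1 were above it. The control string holds CpG and was not matched to the other strings in base composition. Its ratio therefore sets no background level for them.

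**Figure D2:**
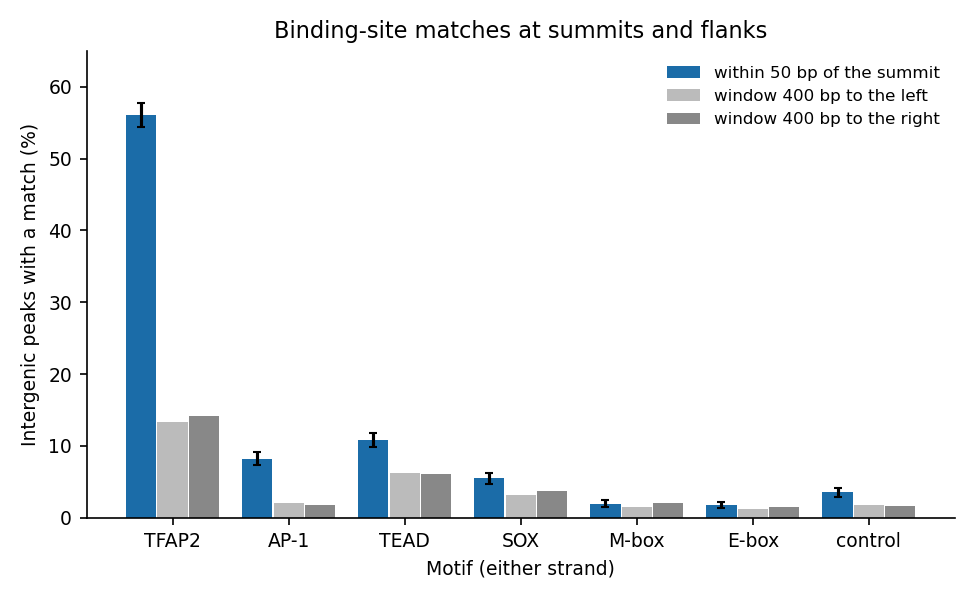
Percent of the 3624 intergenic peaks with a match (y axis) to each string (x axis) within 50 bp of the summit, with exact 95% intervals, and in equally long flanks 400 bp to the left and right. The TFAP2 bar reaches 56.1% and its flanks 13.3% and 14.2%, and the AP-1 bar 8.25% beside flanks of 2.04% and 1.82%.

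The second comparison asked on which side of the nearest start the peaks lay. Upstream peaks numbered 2705 (74.6%, interval 73.2% to 76.1%) and downstream peaks 919. In the whole lists the upstream share was 74.5% for replicate 1 and 75.3% for replicate 2 (74.9% ± 0.601, n = 2). The sequence open to such peaks is itself uneven, since a position downstream of a TSS and outside genes must be past the gene's own 3′ end. Counting every base of chromosomes 1 to 19 that satisfied the positional rule gave 499 Mb, of which 71.9% was upstream of its nearest TSS. Per megabase (Mb) of this eligible sequence there were 7.54 upstream peaks (exact Poisson 95% interval 7.26 to 7.83) and 6.55 downstream peaks (6.13 to 6.99), and these intervals did not overlap.

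Close to genes, density differed by side. On the downstream side the rule admits only genes shorter than the distance of the summit, so the sides drew on different sets of genes. The part of gene type in the difference was not tested. Between 1 and 2 kb upstream there were 213 peaks, 12.8 per Mb (interval 11.1 to 14.6), and the density fell with each step away, to 8.90 at 2 to 5 kb, 7.96 at 5 to 10 kb, 7.31 at 10 to 20 kb and 6.49 at 20 to 50 kb. The interval of the first bin lay above those of all the others, and from 2 kb on those of neighbouring bins overlapped. On the downstream side it was 6.30 at 1 to 2 kb (14 peaks, interval 3.44 to 10.6), 5.45 at 2 to 5 kb, 6.73 at 5 to 10 kb, 6.81 at 10 to 20 kb and 6.53 at 20 to 50 kb. No downstream interval lay apart from another. In the farthest bin the upstream and downstream densities were 6.49 and 6.53, with overlapping intervals. The whole lists gave the same shape, with 14.3 and 16.8 peaks per Mb in replicates 1 and 2 at 1 to 2 kb upstream and 7.47 and 8.61 at 20 to 50 kb upstream, so the step was larger than the gap between replicates.

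**Figure D3:**
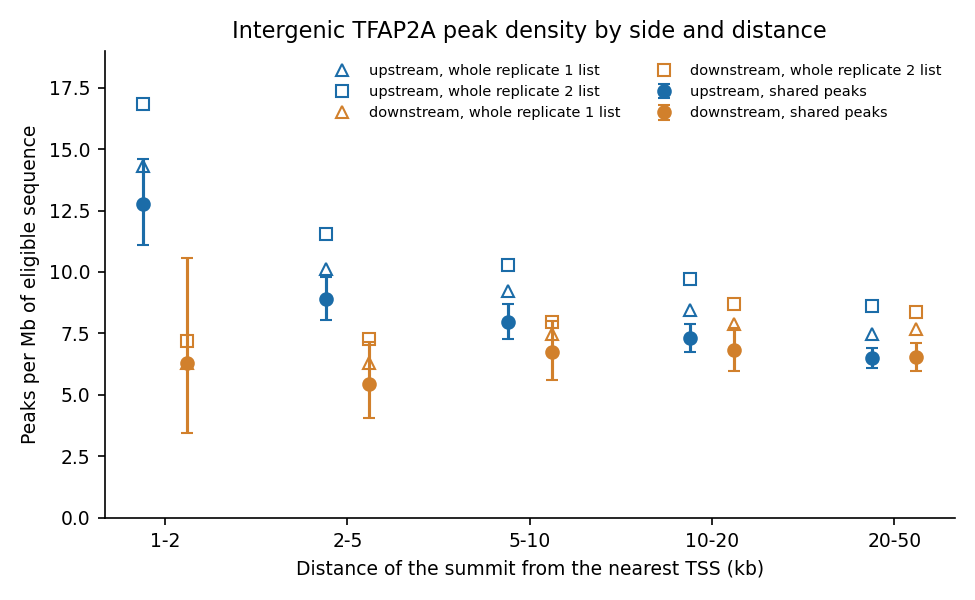
Peaks per Mb of eligible intergenic sequence (y axis) by distance from the nearest TSS in kb (x axis), upstream and downstream. Filled circles with exact Poisson 95% intervals are the shared peaks, and open triangles and squares the whole lists of replicates 1 and 2. Upstream density falls from 12.8 to 6.49 per Mb, and downstream density stays between 5.45 and 6.81.

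Downstream peaks were also placed relative to the 3′ end of the nearest gene, because those genes were short (median length 7340 bp, against 15534 bp for all protein-coding genes on these chromosomes). The rule sets part of this difference, since the nearest gene of a downstream peak must be shorter than the distance to its summit. Density was 7.69 per Mb within 5 kb past the 3′ end (298 peaks, interval 6.84 to 8.62), 6.64 from 5 to 20 kb (411 peaks) and 5.30 from 20 to 50 kb (210 peaks, interval 4.61 to 6.07). The orientation of the flanking genes made less difference. Between divergent genes, which point away from each other, there were 7.53 peaks per Mb (1142 peaks), between genes in tandem 7.19 (1969) and between convergent genes 6.99 (508), with overlapping intervals.

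Over all distances pooled, the difference in strength between the sides did not pass the test. The median fold enrichment of upstream peaks was 6.05 and 6.64 in replicates 1 and 2, and that of downstream peaks 6.06 and 6.44. Of the upstream peaks 10.2% (275) were in the upper 10%, and of the downstream peaks 8.38% (77), a difference of 1.79 points that did not pass (p = 0.122 by a two-sided Fisher's exact test) and was -0.237 points when peaks were ranked by -log10 p. Downstream peaks lay farther out (median distance 21658 bp, against 13583 bp upstream), as did the eligible sequence. This was 16.7 Mb upstream and 2.22 Mb downstream at 1 to 2 kb, and 146 Mb and 75.1 Mb at 20 to 50 kb. In strength, the sides were closer in some distance bins than in others. At 10 to 20 kb 12.0% of upstream peaks (78 of 650, interval 9.60% to 14.7%) and 5.86% of downstream peaks (14 of 239, interval 3.24% to 9.63%) were in the upper 10%, although the median enrichments there were 5.99 and 6.34 upstream and 6.08 and 6.24 downstream. At 2 to 5 kb the medians were 5.68 and 6.49 upstream and 4.94 and 5.22 downstream, from 403 and 51 peaks. At 20 to 50 kb 10.7% and 10.6% were in the upper 10%. Differences within single bins were not tested. The TFAP2 core stood at 55.8% of upstream and 56.8% of downstream peaks, and this difference of -0.978 points did not pass the exact test (p = 0.617).

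The third comparison asked whether peaks grew weaker with distance. The medians did not fall with distance. The median enrichment was 5.89 and 6.24 in replicates 1 and 2 at 1 to 2 kb (227 peaks), 5.61 and 6.34 at 2 to 5 kb (454), 6.21 and 6.70 at 5 to 10 kb (614), 6.01 and 6.30 at 10 to 20 kb (889), and 6.24 and 6.74 at 20 to 50 kb (1440). Replicate 2 was the higher in every bin, so bins were compared within a replicate. Spearman's rho between distance and enrichment was 0.069 in replicate 1 and 0.064 in replicate 2, given as a description. The ratio of the median at 1 to 5 kb to that at 20 to 50 kb was 0.924 ± 0.0139 (n = 2), so the nearer peaks had the lower median in both replicates.

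The upper end of the range leaned slightly to the farther peaks. Among peaks at 1 to 10 kb 8.19% were in the upper 10%, and among those at 10 to 50 kb 10.6%, a difference of -2.38 points (p = 0.0223 by a two-sided Fisher's exact test). It did not pass the exact test when non-coding genes were also kept out of the intergenic space (-2.05 points, p = 0.0544) or when peaks were ranked by -log10 p (-1.47 points, p = 0.177). The share with a TFAP2 core was 57.3% at 1 to 10 kb and 55.4% at 10 to 50 kb (exact test, p = 0.279).

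**Figure D4:**
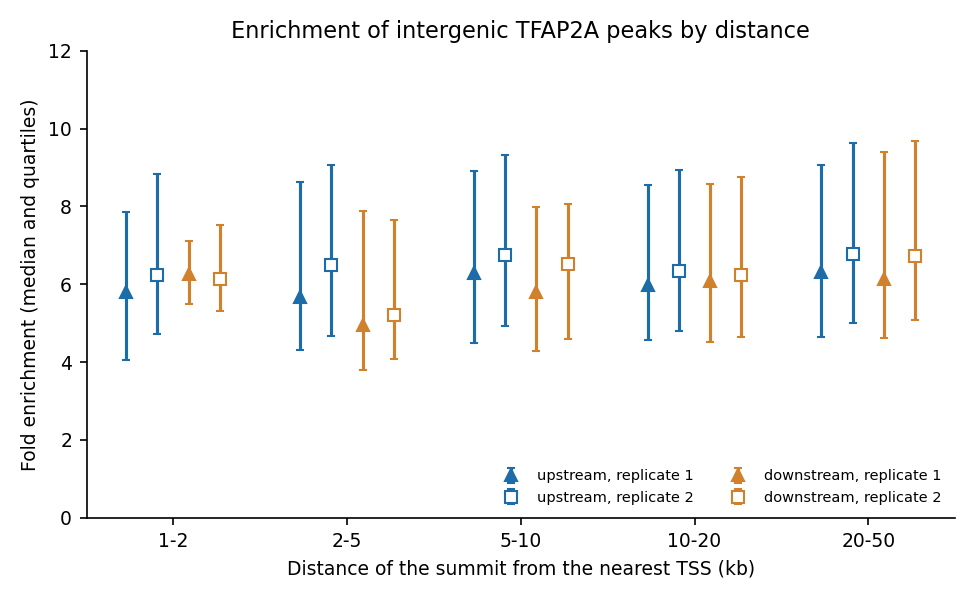
Median fold enrichment with quartiles (y axis) of the intergenic peaks by distance from the nearest TSS in kb (x axis), for each side and replicate. Upstream medians lie between 5.68 and 6.77, and downstream medians between 4.94 and 6.71, with the lowest at 2 to 5 kb downstream.

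The strongest peak of each distance bin shows the range. Upstream, Anln, which encodes the cytokinesis scaffold anillin, had a peak at -1.43 kb with 28.3 and 23.8 in replicates 1 and 2. Trpv2, a cation channel, had one at -6.03 kb with 36.3 and 28.0, and the bins at 2 to 5, 10 to 20 and 20 to 50 kb were led by the peaks at Tm4sf1, Lama2 and Slc16a12 given above. Downstream, the strongest peak at 1 to 2 kb was weak by comparison, 9.84 and 12.2 near the olfactory receptor gene Olfr984, from a bin of 14 peaks. At 2 to 5 kb it was 17.5 and 19.9 near the predicted gene Gm9922, which had a second start at nearly the same distance (2168 and 2282 bp). At 10 to 20 kb it was 32.6 and 23.7 near the predicted gene Gm4877, while Klhl9 and Tmem20 led the bins at 5 to 10 and 20 to 50 kb.

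The peaks on both sides of each limit of the rule were compared as a description. Just inside 1 kb, a peak at -1001 bp from Ccdc114 had 11.3 and 9.65, and just outside, at -1000 bp from Itga5, a TSS peak had 5.71 and 5.52. Just inside 50 kb, a peak at -49917 bp from I0C0044D17Rik had 10.1 and 9.65, and just outside, at 50029 bp from Cyp26b1, a desert peak had 4.41 and 8.37. The 100 peaks nearest to the 50 kb limit had medians of 5.96 and 6.73 inside and 6.22 and 6.54 outside, and the 100 nearest to the 1 kb limit had 6.0 and 6.66 inside and 5.03 and 5.48 outside. In both replicates the medians were thus higher inside the 1 kb limit than outside it, while at 50 kb the replicates gave opposite directions.

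The peaks had 2552 nearest genes, 11.9% of the 21418 protein-coding genes on these chromosomes. Of these genes, 1861 were nearest to 1 peak, 464 to 2 and 227 to 3 or more, and the last held 23.0% of all the peaks. Peaks stood on both sides of 128 of them. A shared peak within 1 kb of their own TSS was found at 421 (16.5%, interval 15.1% to 18%). The share was 13.2% for the 1350 nearest genes of desert peaks and 9.77% for all protein-coding genes. It was 8.86% for the genes that were nearest to none of the 3624 peaks. Nearest genes also had more eligible sequence around them, 37.9 kb a gene against 21.3 kb for the others, and its part in these shares was not tested. For 1212 of the peaks (33.4%) a second start lay within 2 times the distance of the nearest, so the label is least certain there. Long non-coding RNA genes held 221 of the summits in their bodies, and 52 lay within 1 kb of the start of one. These 52 had medians of 5.19 and 5.26 and a GC content of 56.4%.

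Some genes gathered many peaks. Ttr, the thyroid hormone carrier transthyretin, had the most with 13, all upstream, but 12 of them were packed between -49.7 and -36.9 kb on chromosome 18 in a stretch of short repeats. Within 500 bp of each of these summits, at least 20% and up to 83.0% of the 16-base words occurred more than once (the median over all 3624 peaks was 0%), each of the 12 windows held 2 to 5 separate TFAP2 cores, and 6 replicate 1 peaks fell on a single broad replicate 2 peak with a fold enrichment of 9.40. Their replicate 1 values ran from 3.52 to 9.07. Across all the peaks 38 (1.05%, beside 0.525% of all shared peaks) had 20% or more repeated words, 7 of them nearest to Vmn1r pheromone receptor genes, and 24 shared a replicate 2 peak with another.

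Several other genes were nearest to 6 or more peaks. Irf2bp2, a transcriptional corepressor, had 8, of which 4 were upstream and 4 downstream, with replicate 1 values from 3.02 to 10.8 and replicate 2 values from 3.42 to 8.26. Slc6a6, the taurine transporter, had 7, all upstream, from 3.66 to 12.3 and from 3.76 to 10.1. Csf1, the macrophage growth factor, also had 7, of which 6 were upstream, from 2.57 to 8.71 and from 4.76 to 8.42. None of these groups held a peak of the strongest 10.

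Sox10, the neural crest factor that maintains melanocytes, had 7 as well, of which 6 were upstream. Its strongest lay at -5.12 kb with 7.34 and 6.92, and its weakest at -2.68 kb with 3.02 and 2.44. Cdkn1a, which encodes the cell cycle inhibitor p21, had 6, all upstream, led by one at -28.1 kb with 16.8 and 13.4 that held 2 TFAP2 cores. The other 5 at Cdkn1a had replicate 1 values of 3.55 to 6.72 and replicate 2 values of 3.56 to 9.80, all below it. Tln2, which encodes a talin that links integrins to actin, had 6 between -25.2 and -12.4 kb, of which the strongest had 17.4 and 14.7. Gm9930 had 9 peaks, up to 30.8 and 32.7, and no function is stated for it here. With 6 peaks each, Tln2 and Cdkn1a were tied with Gm6420, Phxr4, Gm17247, Nanos3, Frmd8, Cyp1b1 and Sec14l1.

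Melanocyte genes were among the nearest genes. Of 19 genes of the melanosome, the organelle that makes melanin, 7 were nearest to a peak (36.8%, interval 16.3% to 61.6%; 11.9% of all genes). These were Tyrp1 and Dct, enzymes of melanin synthesis, Gpnmb, Mlph, Rab32, Mreg and Lyst. All 8 of their peaks were upstream, beside 74.6% of all 3624. The strongest lay at -19.4 kb from Rab32, a small GTPase that directs melanosomal enzymes, with 14.5 and 18.5, and was followed by one at -23.3 kb from Gpnmb, a melanosomal glycoprotein, with 6.70 and 9.18, and one at -14.1 kb from Mreg, melanoregulin, with 6.40 and 6.82. Apart from that at Rab32, the melanosome peaks had mean enrichments from 3.03 to 7.94.

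Of 20 melanocyte transcription factor genes, 5 were nearest to a peak (interval 8.66% to 49.1%, which holds the 11.9% of all genes), namely Sox10, Foxd3, Irf4, Ets1 and Id3, with 10 of their 14 peaks upstream. Foxd3, which holds back the melanocyte fate in the neural crest, had the strongest, at -31.4 kb with 10.9 and 13.7. The helix-loop-helix inhibitor Id3 had one at -2.99 kb with 8.77 and 7.88, and Sox10 the one at -5.12 kb. Of 20 receptor and ligand genes, 6 were nearest to a peak (interval 11.9% to 54.3%, whose lower bound is at the share of all genes), namely Ednrb, Met, Notch1, Notch2, Igf1r and Ngfr, and all 10 of their peaks were upstream, beside the same 74.6%. Ednrb, the endothelin receptor that melanocyte precursors need, had one at -47.6 kb with 22.1 and 20.3. Met, the hepatocyte growth factor receptor, had one at -4.03 kb with 19.8 and 20.2, and Notch1, a receptor of the Notch pathway, one at -26.7 kb with 12.7 and 10.6. Tyr, Pmel, Mitf and Kit, named after the values had been seen, were not the nearest gene of any of the 3624 peaks.

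The windows of the strongest peak of each melanocyte list are shown in the same form, with capitals at GCCNNNGG on either strand. Those at Rab32 and Ednrb held 1 TFAP2 core each, close to the summit, and that at Foxd3 held none but had the core with 1 more base between GCC and GGC.
Rab32, chr10:10297366-10297466: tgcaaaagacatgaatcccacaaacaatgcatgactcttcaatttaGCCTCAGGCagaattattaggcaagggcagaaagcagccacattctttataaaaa
Foxd3, chr4:99291583-99291683: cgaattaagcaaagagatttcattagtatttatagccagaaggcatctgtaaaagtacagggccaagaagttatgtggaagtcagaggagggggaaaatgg
Ednrb, chr14:104290978-104291078: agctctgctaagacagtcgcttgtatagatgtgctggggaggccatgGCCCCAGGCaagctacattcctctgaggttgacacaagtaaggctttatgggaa

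The other gene lists put these shares in context, beside 11.9% of all genes nearest to a peak and 74.6% of all peaks upstream. Genes of MAPK feedback (Dusp, Spry, Spred and Etv genes, which MAPK signalling induces) were nearest to a peak in 7 of 10, with 14 peaks, of which 9 were upstream. Spred1 had the strongest, at -41.4 kb with 21.7 and 20.3, and Dusp6 had 5 peaks, the strongest at 6.68 kb downstream with 18.3 and 16.9. The AP-1 and TEAD list (Fos, Jun and Tead genes and targets) had 8 of 18, with 13 of 18 peaks upstream, the adhesion and matrix list 8 of 16, the cell cycle list 5 of 12 and the Schwann cell list 4 of 9. Of the lists for other skin cells, keratinocyte genes had 0 of 10 (interval up to 30.8%) and fibroblast genes 1 of 10 (interval 0.253% to 44.5%). Both intervals held the 11.9% of all genes. Hepatocyte genes had 3 of 10, with 13 of their 15 peaks at Ttr. With 9 to 20 genes a list the intervals were wide, and no test between lists was made.

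Lists differed in the intergenic sequence their genes had, so their peaks were also counted per Mb of eligible sequence nearest to them, beside 7.26 per Mb for all genes (interval 7.03 to 7.50). The MAPK feedback list had 22.9 (exact Poisson interval 12.5 to 38.4), the AP-1 and TEAD list 26.4 (15.6 to 41.7), the cell cycle list 25.6 (12.8 to 45.8), the Schwann cell list 24.9 (8.08 to 58.1) and the adhesion list 19.3 (9.98 to 33.7), and these 5 intervals lay above 7.50. In the cell cycle list 6 of the 11 peaks were at Cdkn1a alone. The interval of the hepatocyte list also lay above 7.50 (52.8, interval 29.5 to 87.0), with its 13 peaks at Ttr. Fibroblast genes had 2.11 (0.0535 to 11.8), and the interval of keratinocyte genes reached up to 11.4. The melanosome list had 12.7 (5.48 to 25), the transcription factor list 11.2 (6.14 to 18.9) and the receptor list 11.8 (5.64 to 21.6), whose intervals held the value for all genes. At the low end were the 1106 olfactory receptor genes, of which 23 were nearest to a peak (2.08%), with 0.980 peaks per Mb (0.634 to 1.45). The lists were assembled with results of these data known, so these values are descriptions.

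**Figure D5:**
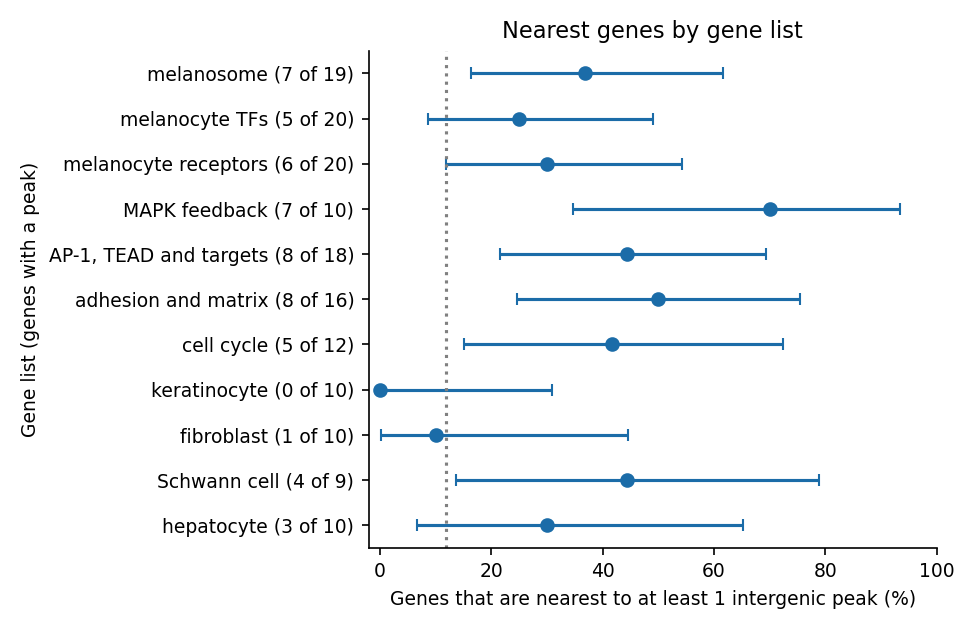
Percent of the genes of each list that are nearest to at least 1 intergenic TFAP2A peak (x axis), with exact Clopper-Pearson 95% intervals, by list (y axis, with counts). The dotted line is the 11.9% of all protein-coding genes. The MAPK feedback list is at 70.0% and the keratinocyte list at 0%.

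The peaks were unevenly spread over chromosomes. Density ran from 5.21 per Mb of eligible sequence on chromosome 7 to 10.5 on chromosome 11, and each whole list gave its lowest and highest density on chromosome 7 and on chromosomes 11 or 15. Within 10 kb of 42.1% of the peaks (1526) lay another shared peak, and within 2 kb of 14.2% (515). The same shares were not counted over all shared peaks, so they are no trait of this class.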

How the data were processed

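TFAP2A ChIP-seq libraries of 2 melan-a replicates were analysed from 1 deposited peak list each. According to the submitters' processing notes the authors aligned reads with BWA to mm9 and called peaks with MACS 1.4.2. That MACS version does not itself write q-values in this format, so how these columns and the summits were made is not fully given in the sources used here. Each list was called on its own replicate, not on pooled reads. For each peak the deposited lists hold a ratio (the fold enrichment), a p-value and a q-value as −log10 values, a summit offset and a score, which was not used. Read depth is not given in the sources used here, so peaks just below the authors' threshold in 1 library are missing from its list. The Input sample is not analysed here.

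Each replicate 1 peak was joined to the replicate 2 peak with the largest overlap. The TSS was the 5′ end of each protein-coding gene record of GENCODE mouse version 1, and 0 peaks ran past a chromosome end of that build (NCBIM37, mm9). Every non-N base that satisfied the positional rule counted as eligible. Strings were searched on both strands. Intervals are 95% exact Clopper-Pearson or Poisson intervals and cover counting error only. Members and gene lists were chosen with earlier results of these data known. Peaks were named by rule: the 10 best by mean rank, the strongest per distance bin and side, members at the 10 genes with most members (ties broken by the strongest member) or at melanocyte lists, and those next to the limits. List genes were matched by symbol or NCBI synonym (1 melanosome and 1 Schwann cell gene did not match an autosomal gene). Python 3.11.15 was used with numpy 2.4.6, pandas 2.3.3, scipy 1.17.1, statsmodels 0.14.6, pysam 0.24.0 and matplotlib 3.10.9, and the code was tested on simulated data. Alternatives are given in the closing section.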

Additional observations from a re-analysis of the deposited data

How the results depend on the processing

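Of 216 values recomputed under 14 alternatives, 191 kept their direction and their side of the threshold, moved by less than the spread, or, for counts, stayed within 1.5 times. The number of peaks ran from 3394 outside all annotated genes to 4728 with replicate 2 alone (3624 as reported), and that of nearest genes from 2425 to 3099 (2552). The upstream share was 69.2% with every transcript start as a TSS and 70.6% with an upper limit of 100 kb, and 74.5% to 75.3% with 1 list alone. The median enrichment was 5.66 to 5.84 with 1 list alone and 6.31 without peaks in short repeats, and the median −log10 p was 28.9. The ratio of 1 to 5 kb to 20 to 50 kb was 0.963 by −log10 p. The upper 10% differed from gene bodies by -1.74 points with every transcript start (exact test, p = 0.00591). By −log10 p, the difference from deserts was 0.312 points, that between sides -0.237 points and that between distances -1.47 points, which was -2.05 points outside all annotated genes. The TFAP2 core against gene bodies, 0.0174 points as reported, was -0.398 with 50% reciprocal overlap, -0.226 with replicate 2 anchors, -0.684 to -0.138 with 1 list alone, and -0.0440 outside all annotated genes. Chosen after seeing the data, it was -0.222 without peaks in short repeats, -0.141 with 1 peak for each replicate 2 peak and 2.52 with CCNNNGG (exact test, p = 0.00614). With GCCNNNGGC the core differed from deserts by 1.72 points and between sides by 0.132 points. With GCCNNNGG the difference between distances was -0.481 points with replicate 2 alone and 2.89 points with replicate 1 alone. The cause of these changes was not tested.

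Read depth is unknown, and a peak absent from a list is only known not to have passed its threshold. The nearest gene is a label of position, and no expression or contact data were used. No paired analysis was possible because the replicates are of 1 group.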
